A study of Sus scrofa with 6 samples.

Results

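The genes described here encode the cytoplasmic polyadenylation and mRNA-masking proteins of the oocyte. They are the 4 CPEB genes (CPEB1 to CPEB4), DAZL, PUM2, the poly(A) polymerase gene TENT2, the Y-box gene YBX2 and the poly(A)-binding protein gene PABPC1L. These 9 genes were listed by symbol for their function, and 8 of them were matched to 1 Ensembl identifier each among the 25880 genes counted. DAZL, which works with CPEB1 on shared messages in mouse oocytes, was paired with no identifier in the name table used, and no value is given for it. The data were RNA-seq libraries of pig (Sus scrofa) oocytes at MII, the arrest in metaphase of the second meiotic division. In 3 libraries the oocytes had been exposed to malathion, an organophosphate insecticide, at 1 mM in the in vitro maturation medium, diluted from a 0.75 M stock in DMSO. The other 3 were labelled control, with no word on whether DMSO alone was added to them. All oocytes came from cumulus-oocyte complexes of slaughterhouse ovaries, from antral follicles of 3 to 6 mm, and no breed, age or number of oocytes per library was given. Whether replicates were separate cultures is not labelled, and the p-values therefore cover library-to-library spread that may be technical.

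A fully grown oocyte is almost silent in transcription, and it makes new protein during maturation by changing the poly(A) tails of messages it has stored. CPEB1 binds a short uridine-rich element in the 3′ untranslated region of such messages and holds them dormant with short tails. On meiotic resumption CPEB1 is phosphorylated, the tail is lengthened by a cytoplasmic poly(A) polymerase such as TENT2 (also called GLD2), a poly(A)-binding protein covers it, and translation starts. Y-box proteins coat the stored messages and mask them. The counts here come from polyadenylated mRNAs of these regulators, and measure neither their proteins nor the tail lengths of their targets. Whether the length of a tail affected a count was not tested, so counts need not follow mRNA amount alone.

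The libraries held 25816040 to 42312341 gene counts after malathion and 27105849 to 29471856 in the control. The replicate 3 libraries stood apart in both groups. They had at least 1 count for 8492 genes (malathion) and 8344 genes (control), against 12211 to 14707 genes in the other 4. Over the 9 oocyte markers matched of 10 (such as GDF9, BMP15 and ZP3), the summed level was 2521 to 33007 CPM in malathion and 1212 to 32599 CPM in control libraries, with both low ends in replicate 3. Of these markers only ZP2 was highest in malathion replicate 3, where it held most of the summed level. It stood at 547, 594 and 2158 CPM in malathion replicates 1, 2 and 3. In control replicates 1, 2 and 3 ZP2 stood at 554, 145 and 23.9 CPM. Over the 11 markers of cumulus and granulosa cells matched of 14, the summed level was 66.1 to 726 CPM in malathion and 36.1 to 653 CPM in control libraries. AMH was at 0 in each library, and PTX3, TNFAIP6, FSHR and INHA were at 0 in both replicate 3 libraries. VCAN and KITLG had counts in each library and held most of the summed level. In malathion and control replicate 3, VCAN stood at 38.6 and 14.1 CPM and KITLG at 15.8 and 18.8 CPM. The part that such cells or the make-up of the replicate 3 libraries had in the results below was not tested. In bulk libraries, fewer cells of a type and less RNA per cell cannot be told apart.

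Levels are given as CPM, the counts of a gene scaled to a common total of gene counts per library. Longer transcripts collect more reads, so CPM are compared here between libraries for the same gene and not between genes.

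CPEB1 (ENSSSCG00000001808), the founding member of the family and the main CPEB of the maturing oocyte, was abundant in 4 libraries and at a few CPM in the others. It stood at 476, 467 and 3.40 CPM in malathion replicates 1, 2 and 3, against 446, 344 and 4.78 CPM in control replicates 1, 2 and 3. The counts behind the replicate 3 values were 144 in malathion and 141 in control, against 9327 to 12960 in the other libraries. The groups overlapped, and the means were 315 ± 270 CPM after malathion and 265 ± 231 CPM in the control (SD, n = 3 each).

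CPEB2 (ENSSSCG00000038410), a paralogue that forms the second CPEB subfamily with CPEB3 and CPEB4, had the opposite arrangement over the libraries. It stood at 69.0, 60.7 and 2486 CPM in malathion replicates 1, 2 and 3, against 57.8, 24.5 and 632 CPM in control replicates 1, 2 and 3. Both replicate 3 libraries were above each of the other 4, with 105181 counts in malathion replicate 3 and 18630 in control replicate 3. The ratio of CPEB2 to CPEB1 counts was 0.145, 0.130 and 730 in malathion replicates 1, 2 and 3, against 0.129, 0.0713 and 132 in control replicates 1, 2 and 3. Gene length cancels when this ratio is compared between libraries, and it was above 100 in both replicate 3 libraries and below 1 in the other 4. The mean levels of CPEB2 were 872 ± 1398 CPM after malathion and 238 ± 342 CPM in the control (SD, n = 3 each), so each SD exceeded its mean.

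CPEB3 (ENSSSCG00000010468), best known for its part in memory in the mouse brain, was at a few CPM throughout. It stood at 2.83, 3.75 and 8.72 CPM in malathion replicates 1, 2 and 3, and at 2.88, 6.83 and 6.55 CPM in control replicates 1, 2 and 3. Malathion replicate 3 was highest and malathion replicate 1 lowest, so the control values lay inside the range of the malathion values.

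CPEB4 (ENSSSCG00000016981) takes over polyadenylation from CPEB1 late in meiosis in Xenopus oocytes. It stood at 31.7, 45.1 and 23.2 CPM in malathion replicates 1, 2 and 3, against 39.7, 53.9 and 13.5 CPM in control replicates 1, 2 and 3. The means were 33.3 ± 11 CPM after malathion and 35.7 ± 20.5 CPM in the control (SD, n = 3 each), with the malathion values inside the range of the control values. The replicate 3 libraries were lowest in both groups, yet still above 13 CPM.

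**Figure D1:**
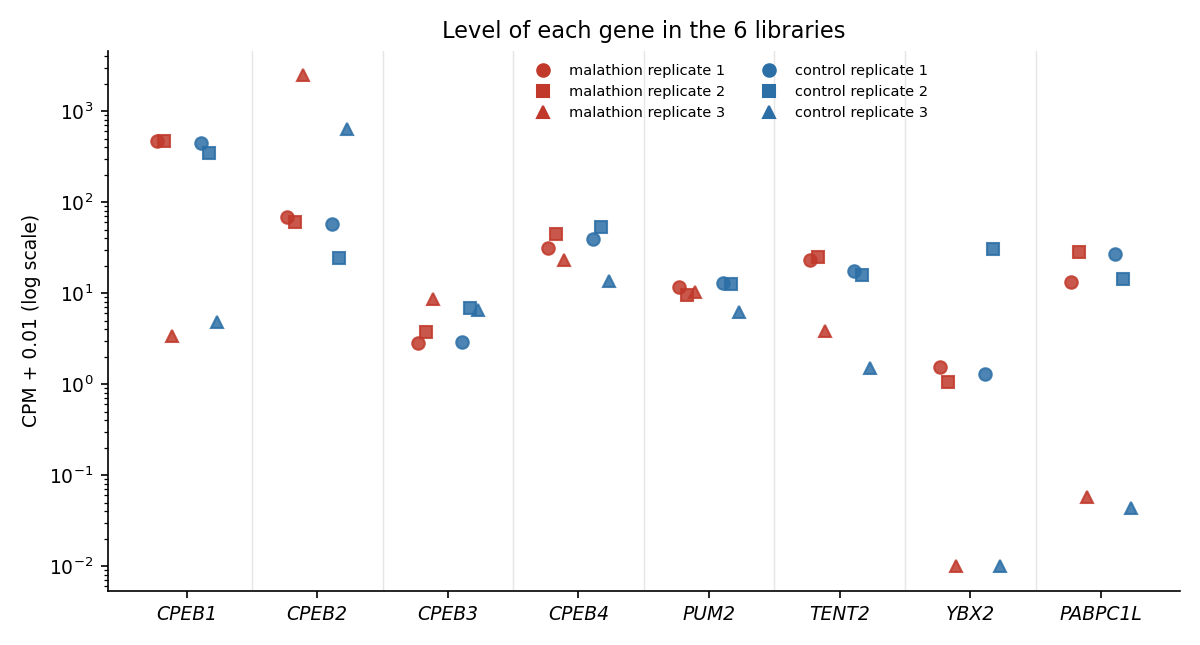
The level of each of the 8 matched genes in each library, as CPM + 0.01 on a log axis, with malathion libraries (red) left of control libraries (blue) and the marker shape giving the replicate number. CPEB1 and CPEB2 part the replicate 3 libraries from the rest in opposite directions, while PUM2 stays between 6.21 and 13.0 CPM in all 6.

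PUM2 (ENSSSCG00000008600) encodes a Pumilio protein that represses messages carrying its binding element, among them cyclin B1 mRNA in Xenopus oocytes. In CPM on library totals, PUM2 varied least of these genes. It stood at 11.7, 9.54 and 10.4 CPM in malathion replicates 1, 2 and 3, against 13.0, 12.5 and 6.21 CPM in control replicates 1, 2 and 3. The means were 10.6 ± 1.11 CPM after malathion and 10.6 ± 3.78 CPM in the control (SD, n = 3 each). Its highest level was 2.09 times its lowest. Of the 5366 tested genes with over 3 counts in each library, whose median ratio of highest to lowest CPM was 51.8, 57 had a smaller ratio than PUM2, 171 a smaller one than CPEB3 (3.08) and 284 a smaller one than CPEB4 (4.0). For CPEB1 and CPEB2 the ratio was 140 and 101. These ratios are on library totals. Another scaling of the libraries could order the genes otherwise, which was not tested.

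TENT2 (ENSSSCG00000014114), the cytoplasmic poly(A) polymerase, was higher in the malathion library than in the control library of the same number each time. It stood at 23.0, 24.7 and 3.83 CPM in malathion replicates 1, 2 and 3, against 17.5, 16.0 and 1.49 CPM in control replicates 1, 2 and 3. The replicate 3 values rest on 162 counts in malathion and 44 in control. Over all 6 libraries the groups overlapped, since malathion replicate 3 was below control replicates 1 and 2, and the means were 17.2 ± 11.6 CPM after malathion and 11.7 ± 8.83 CPM in the control (SD, n = 3 each).

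YBX2 (ENSSSCG00000017938), known as MSY2 in the mouse, where it coats and stabilises maternal mRNA, was low or at 0 in 5 of the 6 libraries. It stood at 1.55, 1.04 and 0 CPM in malathion replicates 1, 2 and 3, against 1.30, 30.7 and 0 CPM in control replicates 1, 2 and 3. Control replicate 2 alone held 833 counts, against 40 at most in any other library. No counts were found in the replicate 3 libraries, which allows up to 0.0709 CPM in malathion and 0.102 CPM in control (3 counts of the library total).

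PABPC1L (ENSSSCG00000007382), the embryonic poly(A)-binding protein that oocytes use in Xenopus and mouse before PABPC1 takes over, stood at 13.4, 28.2 and 0.0473 CPM in malathion replicates 1, 2 and 3. In control replicates 1, 2 and 3 it stood at 26.7, 14.4 and 0.0339 CPM. Only 2 counts in malathion replicate 3 and 1 count in control replicate 3 lay behind the lowest values. In the other libraries the groups were interleaved, with malathion replicate 2 highest and malathion replicate 1 lowest, and the means over all 6 were 13.9 ± 14.1 CPM after malathion and 13.7 ± 13.4 CPM in the control (SD, n = 3 each).

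Of the 10678 genes tested, 83.8% were lower in both replicate 3 libraries than in each of the other 4, and 1.79% were higher in both. Among the 8 genes described here, CPEB1, CPEB4, TENT2, YBX2 and PABPC1L were lower in both and CPEB2 was higher in both, while PUM2 and CPEB3 overlapped the other libraries. Being low there was the rule for tested genes, and CPEB2 was on the rarer side.

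Malathion and control were then compared within libraries of the same replicate number, since both groups carry the same numbers. Only the replicate 3 libraries were set apart by number: malathion replicate 2 resembled control replicate 1 (r = 0.556 over genes, after subtracting group means) more than control replicate 2 (r = 0.382). The ratios are on the scale of log2(CPM + 1), which understates changes of genes at a few CPM. In replicates 1, the 8 log2 ratios of malathion to control ran between −0.95 for PABPC1L and 0.38 for TENT2, with a median of 0.04. For comparison, the 5331 tested genes averaging 10 CPM or more had a median ratio of −0.08 and an SD of 0.37 between genes. PABPC1L was thus outside 1 SD of these genes on the low side and TENT2 just outside it on the high side, and the other 6 were inside it. In replicates 2 the SD over the same genes was 1.27, and the 8 ratios ran between −3.96 for YBX2 and 1.27 for CPEB2 (median 0.09). In replicates 3 the SD was 2.28 over 5043 genes with over 3 counts in either library, and the 6 ratios that could be formed ran between −0.39 for CPEB1 and 1.97 for CPEB2 (median 0.70). PABPC1L had 0.92 in replicates 2, opposite to its ratio in replicates 1.

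**Figure D2:**
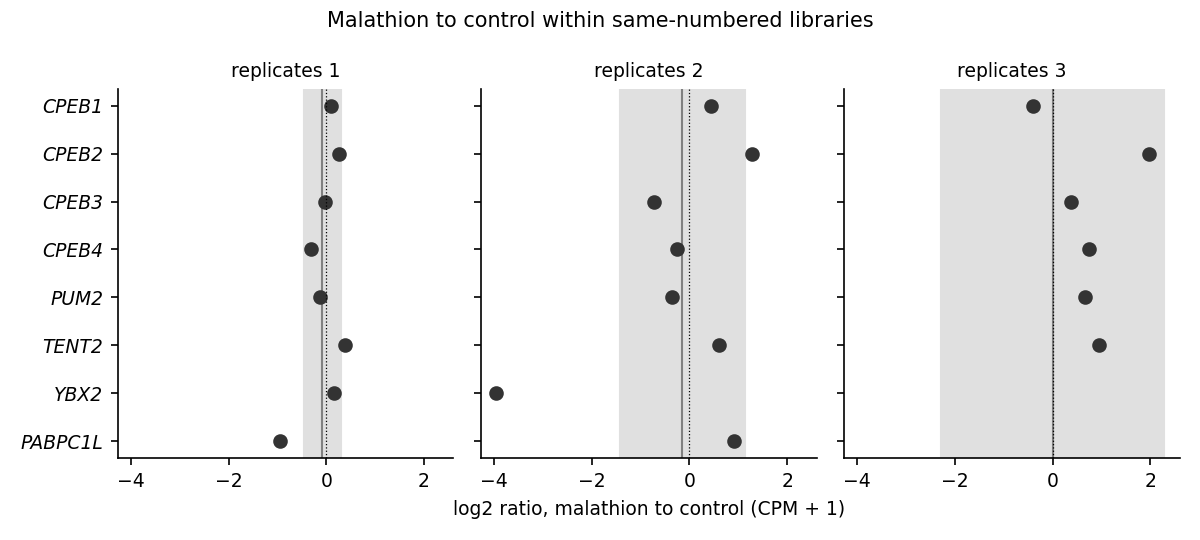
The log2 ratio of malathion to control, on CPM + 1, of each gene in replicates 1, 2 and 3. The grey band is the median ± 1 SD over tested genes averaging 10 CPM or more, the solid line their median and the dotted line 0. The band widens from replicates 1 (SD 0.37) to replicates 3 (SD 2.28), and CPEB2 and TENT2 lie right of 0 in all 3 panels. YBX2 and PABPC1L are not drawn in replicates 3, where both libraries had at most 2 counts.

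CPEB2 and TENT2 were higher in malathion than in control in each of the 3 same-numbered pairs, and none of the 8 genes was lower in each. Of all tested genes, 6.8% were higher in each pair and 14.6% lower in each. For a set of 8, a count of 2 is too small to set these genes apart from that background.

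In edgeR's quasi-likelihood test over all 6 libraries, none of the 8 genes was called at an adjusted p of 0.05. The share of tested genes called was 0%, so the count among these genes says nothing particular about them. An unadjusted p under 0.05 was found for 110 of the 10678 genes (35 higher, 75 lower after malathion), none of them among the 8. DESeq2 and limma-voom also called 0 genes, with 227 and 3 at an unadjusted p under 0.05. However, DESeq2 gave no adjusted p for 1119 of the 10678 genes, and neither p for CPEB2, CPEB3 and PUM2. YBX2 was among those of DESeq2 (−3.13 ± 1.59, SE, unadjusted p = 0.0490, adjusted p = 0.999927). In edgeR, YBX2 had an unadjusted p of 0.0458 without both replicate 3 libraries (adjusted p = 0.938832), and CPEB2 one of 0.0373 without control replicate 3 (adjusted p = 0.999753). The groups did not overlap in CPM for 0.749% of tested genes, and for 0 of the 8.

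The log2 fold changes, malathion to control, were 0.25 ± 1.81 for CPEB1, 1.87 ± 1.86 for CPEB2, −0.09 ± 2.37 for CPEB3 and −0.10 ± 1.96 for CPEB4 (SE, edgeR). They were −0.0024 ± 2.18 for PUM2, 0.56 ± 2.11 for TENT2, −3.62 ± 2.60 for YBX2 and 0.01 ± 2.12 for PABPC1L. Each 95% confidence interval included 0. The interval for CPEB1 ran from −3.30 to 3.80 and that for PUM2 from −4.28 to 4.27, so changes of many-fold in either direction are within them, and the missing calls do not show that levels were alike. The smallest p belonged to YBX2 (edgeR, unadjusted p = 0.163, adjusted p = 0.99998). The log2 fold change of YBX2 rests on control replicate 2, without which it was 0.41. That of CPEB2 rests on malathion replicate 3, without which it was −1.88 (4.41 without control replicate 3). CPEB1 stood at −0.17 without malathion replicate 1, at −0.15 without malathion replicate 2 and at −0.33 without control replicate 3. PABPC1L stood at −1.03 without malathion replicate 2 and at −0.57 without control replicate 3. TENT2 was between 0.04 and 1.03 whichever library was left out.

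Scaling moved these values. Over the whole table, the median log2 fold change was −0.33 on library totals and −0.08 with TMM factors, an edgeR scaling that sets the bulk of genes equal between libraries, a shift of 0.25. The share of tested genes above 0 was 33.7% on library totals and 46.6% with TMM factors. Relative to the all-gene median on library totals, CPEB1 was at 0.58, CPEB2 at 2.20, TENT2 at 0.89, PABPC1L at 0.34, PUM2 at 0.33, CPEB3 at 0.24, CPEB4 at 0.23 and YBX2 at −3.29. On library totals 4 of the 8 genes were above 0, and with TMM factors 7 were, all but YBX2. CPEB3 (0.41), CPEB4 (0.64) and PUM2 (0.66) had the opposite sign with TMM factors, and TENT2 was at 1.08 ± 0.98 (SE). With the replicate number as a block, the SE was 0.56 to 0.76 for the genes other than YBX2, whose SE was 1.76. The log2 fold change was then 0.02 for CPEB1, 1.18 for CPEB2 and 0.79 for TENT2, with an edgeR adjusted p of at least 0.9976 for each of the 8.

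**Figure D3:**
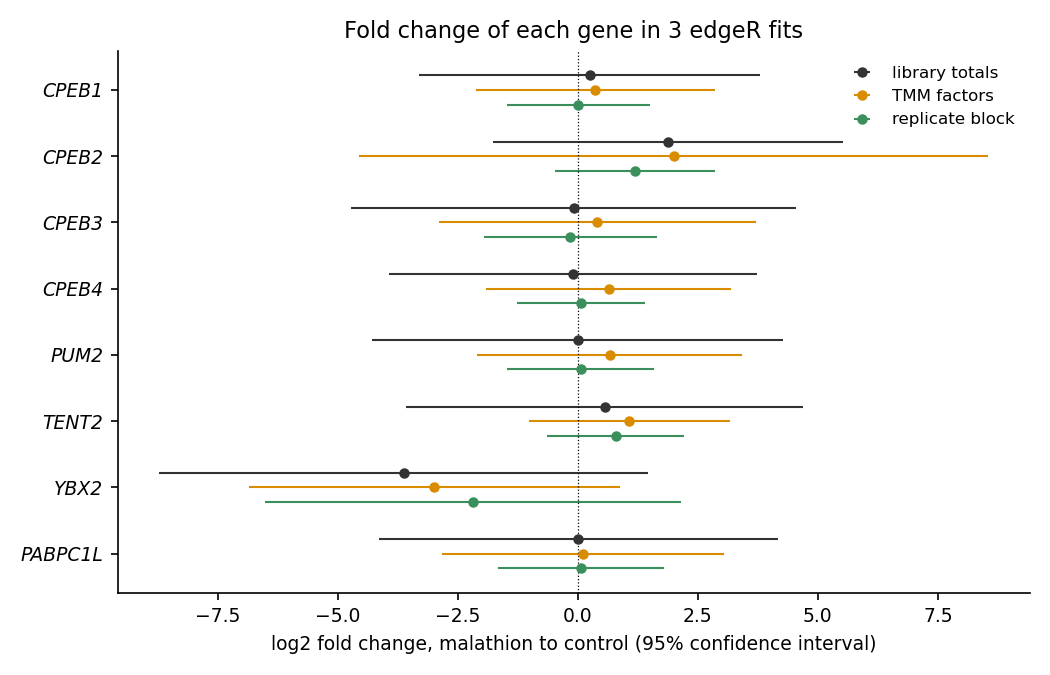
The log2 fold change of each gene, malathion to control, with its 95% confidence interval in 3 edgeR fits: library totals (black), TMM factors (orange) and library totals with the replicate number as a block (green). Each interval includes 0, and those of the blocked fit are the narrowest for 7 of the 8 genes.

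By the profile over the 6 libraries, the gene nearest to each of the 6 averaging 10 CPM or more was sought among 4719 other genes with a symbol and that mean. Likeness was the root mean square difference of log2(CPM + 1), each profile centred on its own mean. SDCCAG8 was nearest to CPEB1 (0.0795), IQCB1 to CPEB2 (0.233), ZWINT to CPEB4 (0.0865), ADAM10 to PUM2 (0.164), PHF14 to TENT2 (0.133) and PEF1 to PABPC1L (0.119). IQCB1 stood at 528, 593 and 23343 CPM in malathion replicates 1, 2 and 3, against 510, 199 and 7820 CPM in control replicates 1, 2 and 3. Within a difference of 1 there were 1345 genes for CPEB1, 1803 for TENT2, 2573 for PABPC1L, 872 for CPEB4 and 580 for PUM2, and 45 for CPEB2. The profile of CPEB2 was the one with the fewest near neighbours by this fixed limit, which depends on the level and spread of a gene. The median difference from the 4719 genes was 4.15 for CPEB2 and 0.926 for PABPC1L. Only 1.79% of tested genes were higher in both replicate 3 libraries, as CPEB2 was. These values describe 6 libraries that share the split by replicate 3.

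Further genes of the pathway were taken from lists by function, and those with the highest mean CPM of each list are given, up to 3 a list. On library totals, none of the tested genes of these lists was called by edgeR or had an unadjusted p under 0.05, against 0% and 110 genes over the whole table. Of all tested genes, 33.7% had a positive log2 fold change on library totals, with a median of −0.33, so negative values were the rule.

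The machinery that CPEB1 recruits or works against comprises the cleavage and polyadenylation specificity factor, poly(A) polymerases and deadenylases. Of 15 genes, 12 were matched and 11 tested, with 5 higher and 6 lower after malathion and a median log2 fold change of −0.19 (0.10 with TMM factors). Single libraries turned that median, which was 0.20 without malathion replicate 3, 0.47 without control replicate 1, 0.55 without control replicate 2 and −0.74 without control replicate 3. CNOT7, a deadenylase of the CCR4-NOT complex, stood at 341, 228 and 1366 CPM in malathion replicates 1, 2 and 3, against 257, 134 and 408 CPM in control replicates 1, 2 and 3 (log2 fold change 1.28 ± 1.83, and 0.10 without malathion replicate 3). PAPOLG, a nuclear poly(A) polymerase, stood at 32.0, 50.1 and 124 CPM in malathion replicates 1, 2 and 3. In control replicates 1, 2 and 3 it stood at 33.7, 376 and 270 CPM (−1.72 ± 1.89), so 2 control libraries were high. WDR33, the subunit of the specificity factor that reads the polyadenylation signal, stood at 116, 123 and 0.355 CPM in malathion and 102, 99.4 and 0.882 CPM in control replicates 1, 2 and 3. PAN2, a deadenylase subunit picked out after its values were seen, was the only gene of these lists whose groups did not overlap, as they did not for 0.749% of all tested genes. It stood at 73.9, 62.0 and 92.1 CPM in malathion replicates 1, 2 and 3, against 61.3, 27.2 and 1.70 CPM in control replicates 1, 2 and 3 (1.34 ± 1.94). With TMM factors its log2 fold change was 3.99 ± 1.5 (edgeR, unadjusted p = 0.0182, adjusted p = 0.999781), and control replicate 3, with 50 counts, was its lowest library.

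Among the kinases, ubiquitin ligase and other factors that act on CPEB1, 7 of 8 genes were matched and 5 tested, and all 5 had a negative log2 fold change (median −1.20). With TMM factors 2 of them were positive and the median was −0.09, and without control replicate 2 the median was 0.45 (−1.74 to −0.9985 without any other 1 library). CDK1, which phosphorylates CPEB1 ahead of its destruction in Xenopus oocytes, stood at 9.96, 22.3 and 0.733 CPM in malathion replicates 1, 2 and 3. In control replicates 1, 2 and 3 it stood at 9.68, 289 and 1.02 CPM, so control replicate 2 alone was high (−3.18 ± 2.07, and 1.04 without it). BTRC, the F-box protein that then marks CPEB1 for the proteasome in Xenopus, stood at 49.1, 63.8 and 2.67 CPM in malathion, and at 54.7, 125 and 1.53 CPM in control replicates 1, 2 and 3. PLK1, a kinase in the same step, stood at 23.3, 29.0 and 0.0945 CPM in malathion, and at 25.1, 35.6 and 0.136 CPM in control replicates 1, 2 and 3.

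Of the 11 genes of the masking complex around the cap and the stored message, 10 were matched and 9 tested. On library totals 2 had a positive and 7 a negative log2 fold change (median −0.46, against 0.10 if control replicate 2 is left out and −1.28 if malathion replicate 2 is). With TMM factors 3 were positive and 6 negative (median −0.17). EIF4E, the cap-binding protein, was another gene that was higher in both replicate 3 libraries, with 364, 376 and 2904 CPM in malathion replicates 1, 2 and 3. It stood at 262, 444 and 2945 CPM in control replicates 1, 2 and 3 (−0.0027 ± 1.79, but −1.72 without malathion replicate 3 and 1.78 without control replicate 3). EIF4ENIF1, the 4E-T protein that holds EIF4E in repressed complexes, stood at 242, 316 and 1.21 CPM in malathion replicates 1, 2 and 3, against 307, 372 and 4.24 CPM in control replicates 1, 2 and 3. ZAR1L, a relative of the maternal RNA-binding protein ZAR1, stood at 746, 940 and 8.44 CPM in malathion, and at 813, 474 and 243 CPM in control replicates 1, 2 and 3 (0.15 ± 1.80, and −1.57 with TMM factors).

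In the DAZ and Pumilio family with its partners, 10 of 10 genes were matched and 7 tested, while NANOS1, NANOS2 and NANOS3 had 0 counts in each library. Of the 7, 2 were higher and 5 lower (median −0.30, and −1.09 with TMM factors). Leaving out 1 library moved the median between −1.16 without malathion replicate 2 and 0.07 without malathion replicate 3. DAZAP2, a DAZ-associated protein, stood at 1287, 1345 and 5.51 CPM in malathion replicates 1, 2 and 3, against 1480, 1006 and 9.50 CPM in control replicates 1, 2 and 3. PUM3, a Pumilio relative of the nucleolus, stood at 68.1, 154 and 1.25 CPM in malathion, and at 142, 120 and 0.441 CPM in control replicates 1, 2 and 3.

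Among poly(A)-binding proteins and the factors that bind them, 11 of 12 genes were matched and 10 tested. On library totals 1 had a positive and 9 a negative log2 fold change (median −0.56). With TMM factors 3 were positive and 7 negative (median −0.73). Control replicate 2 held the highest CPM of 7 of the 10. It also held that of 5 of 11 tested genes of the adenylation machinery, 5 of 5 kinases and turnover factors and 6 of 9 masking genes. In the DAZ and Pumilio list this was 2 of 7, and among messages under CPEB1 or DAZL control 1 of 8. The share over all tested genes was not computed, so the count says nothing particular about these genes. On library totals the median was 0.23 if control replicate 2 is left out, −0.01 without malathion replicate 3 and −1.41 without malathion replicate 2. PAIP1, which links poly(A)-binding protein to the initiation complex, stood at 1083, 1397 and 74.1 CPM in malathion replicates 1, 2 and 3, against 1054, 1456 and 85.6 CPM in control replicates 1, 2 and 3 (−0.02 ± 1.80). EIF4G2, a scaffold of initiation that lacks the EIF4E-binding region, stood at 1592, 1301 and 73.2 CPM in malathion, and at 1628, 596 and 1499 CPM in control replicates 1, 2 and 3 (−0.33 ± 1.80, and −2.74 with TMM factors). PAIP2B, an inhibitor of poly(A)-binding protein, stood at 27.1, 25.3 and 6.36 CPM in malathion, and at 24.2, 44.3 and 516 CPM in control replicates 1, 2 and 3. Control replicate 3 alone carried its log2 fold change of −3.31 ± 2.03, which was −0.81 without that library and −5.77 ± 2.45 with TMM factors (edgeR, unadjusted p = 0.0334, adjusted p = 0.999781).

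Messages known to be under CPEB1 or DAZL control in mouse or Xenopus oocytes were split 4 higher to 4 lower among the 8 tested of 9 (median 0.23, and −0.17 with TMM factors). That median was −0.25 without malathion replicate 1, −0.15 without malathion replicate 2, −0.18 without control replicate 3 and 1.6 without control replicate 1. BTG4, an adapter of the CCR4-NOT deadenylase that clears maternal mRNA in the mouse, stood at 44538, 24612 and 521 CPM in malathion replicates 1, 2 and 3, against 34834, 7710 and 2880 CPM in control replicates 1, 2 and 3 (0.62 ± 1.82, and −0.19 with TMM factors). CCNB1, the cyclin that drives entry into meiotic metaphase with CDK1, stood at 2211, 2037 and 6.59 CPM in malathion replicates 1, 2 and 3, against 2248, 563 and 116 CPM in control replicates 1, 2 and 3 (0.54 ± 1.80, and −0.10 with TMM factors). TPX2, a spindle assembly factor, stood at 821, 814 and 5.62 CPM in malathion, and at 953, 456 and 322 CPM in control replicates 1, 2 and 3 (−0.08 ± 1.80, and −1.99 with TMM factors). All 3 were lowest in malathion replicate 3, and in replicates 2 all 3 were higher in malathion than in control.

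**Figure D4:**
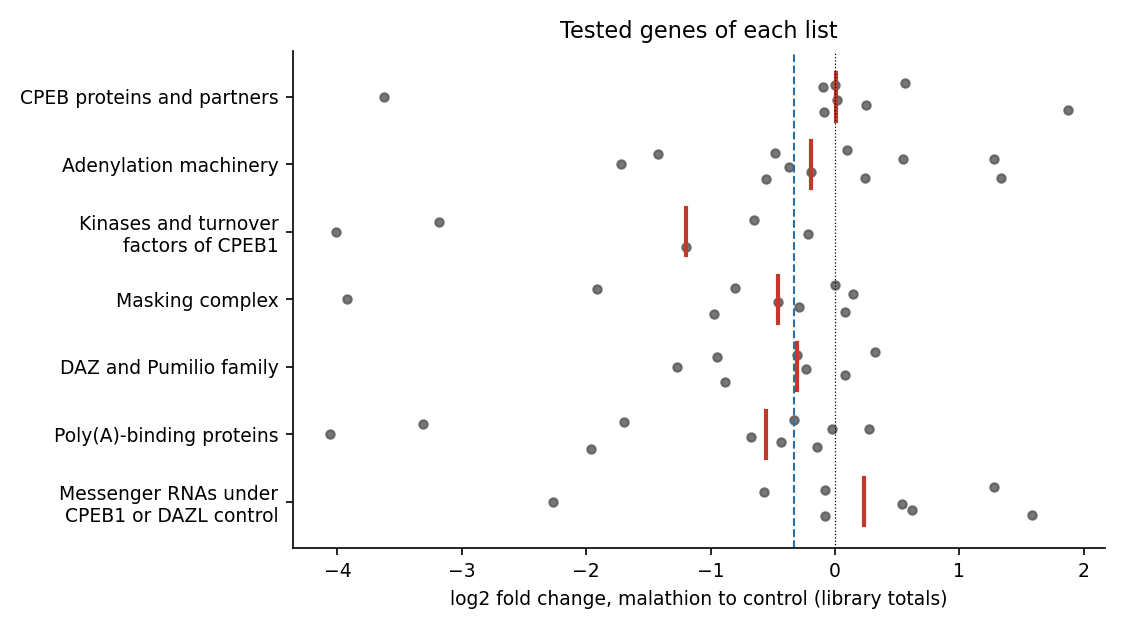
The log2 fold change, malathion to control on library totals, of each tested gene (grey points) of the CPEB genes with their partners and of the 6 lists. Red bars give the median of a list, the blue dashed line the median of all tested genes (−0.33) and the dotted line 0. The medians run from −1.20 for the kinases and turnover factors of CPEB1 to 0.23 for the messages under CPEB1 or DAZL control.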

How the data were processed

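Polyadenylated RNA was amplified with a modified Smart-seq2 protocol, which copies whole transcripts without molecular identifiers and without marking strand, with library construction by a TruSeq DNA kit, per the labels' protocols. The deposited files give read counts per Ensembl gene, 1 library a file, with no normalization by the authors that the values show. STAR 2.5.3a, HTSeq 0.9.1 and DESeq2 1.20.0 are named in the submitters' processing notes, and their roles, the genome build, annotation and strand setting are not given in the sources used here. Rows of reads given to no gene (36.7% to 42.6% of a file, of which reads with more than 1 alignment were 2.45% to 8.37% of a file) stayed out of library sizes and tests. Genes with near-identical copies, such as PABPC1 and YBX1 with their processed pseudogenes, can lose reads to that row, and overlapping genes cannot be told apart without strand. Symbols were matched for 14857 of 25880 identifiers. No sequence is printed, and levels are not compared between genes, since transcript lengths were not used here.

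CPM were computed on the sum of gene rows. Tests of malathion against control used edgeR 4.0.16 in R 4.3.3 with limma 3.58.1: quasi-likelihood F test, two-sided, library totals, filterByExpr (minimum count 10, minimum total count 15), Benjamini-Hochberg adjustment over the 10678 genes kept, threshold 0.05. All 8 matched genes passed the filter. The model scripts were tested on simulated data with less spread than these libraries and the same make-up in each. That test does not show how the fits behave on these data. Library totals let abundant genes shift all fold changes, so TMM factors (0.138 to 3.57) were an alternative, with DESeq2 1.42.0, limma-voom, no filter, a replicate block and left-out libraries. Wilson 95% intervals, for counting error only, were within ± 19.3% of the value for the 38 of 48 gene and library values with at least 100 counts. The chi-square over genes per degree of freedom was at least 47.2 between any pair of libraries, so none was a duplicate.

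Both groups carry replicate numbers 1 to 3. After subtracting group means, libraries sharing a number correlated over genes at r = 0.588, 0.382 and 0.652, all above 0.1, so the numbers were taken to pair the libraries, from the data and not from a label. Replicates 1 and 2 are not told apart by number, since malathion replicate 2 correlated more with control replicate 1 (r = 0.556) and malathion replicate 1 with control replicate 2 at r = 0.290. The members and lists were chosen with earlier results of these data known. Named genes are all matched members, the 3 of each list with the highest mean CPM (1 of them is not reported here), the nearest profile of each member at a mean of at least 10 CPM, and PAN2.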

Additional observations from a re-analysis of the deposited data

How the results depend on the processing

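No gene was called by any fit, and the number at an unadjusted p under 0.05 was 110 on library totals, 383 with TMM factors, 227 with DESeq2, 3 with limma-voom, 270 without the filter on low counts, 260 without both replicate 3 libraries and 46 to 188 when leaving out 1 library. The replicate block called 0 genes too (136 at an unadjusted p under 0.05, and 120 with TMM factors) and changed no call. TENT2 kept a positive log2 fold change in 14 of 14 alternatives (0.04 to 1.08). The sign of the others turned in the following alternatives, and the cause was not tested. With TMM factors CPEB3 was at 0.41, CPEB4 at 0.64 and PUM2 at 0.66. With DESeq2 they were at 0.35, 0.60 and 0.62, where CPEB3 and PUM2 had no p. With limma-voom CPEB1 was at −0.12, CPEB4 at 0.0597, PUM2 at 0.07 and PABPC1L at −0.13. With the replicate block CPEB4 was at 0.0639 and PUM2 at 0.0649, and with the block and TMM factors CPEB3 at 0.0170, CPEB4 at 0.24 and PUM2 at 0.24. Leaving out 1 library gave −0.33 to 0.85 for CPEB1, −1.88 to 4.41 for CPEB2, −0.72 to 0.20 for CPEB3, −0.49 to 0.33 for CPEB4, −0.27 to 0.17 for PUM2, −4.35 to 0.41 for YBX2 and −1.03 to 0.94 for PABPC1L. Without both replicate 3 libraries and control replicate 2, an alternative chosen after seeing the data with 1 control library assumed to vary like the others, CPEB3 was at 0.19, YBX2 at 0.0010 and PABPC1L at −0.36, while PUM2, at −0.2841, kept its sign. Counting error limits YBX2 and PABPC1L in the replicate 3 libraries, where they had 2 counts at most although these were the libraries with the most gene counts of each group.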
